A study of Mus musculus with 4 samples.

Results

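Tumour neutrophils were defined here as every cell that the deposited annotation named Neutro, which gave 315 of 34447 cells in 4 single-cell libraries. The libraries held CD45+ cells sorted from YUMM1.7 mouse melanomas, a Braf-mutant line that was made to express ovalbumin, in Rag2-/- mice 6 to 12 weeks old. All tumours were of the RTT kind, grown from cells that had become resistant to inhibitors of the BRAF pathway, and all mice were given activated OT-1 T cells, CD8+ cells that recognise ovalbumin, on day 7 and were sampled on day 10, 72 h later. Rag2-/- hosts make no T or B cells of their own but keep their myeloid and NK cells. In CTRL the tumour cells carried an empty vector with mCherry. In IRF3/7 they overexpressed the transcription factors IRF3 and IRF7 from the viral SFFV promoter, as a sorted bulk population and not a clone. COX2i stood for mCherry tumours in mice fed daily with celecoxib, an inhibitor of the prostaglandin enzyme COX2, and COX2i + 5-AZA for the same with injections of 5-azacytidine, an inhibitor of DNA methylation, added. Each group was 1 library that pooled 3 tumours, so no difference below has a replicate check. All intervals below are exact 95% intervals that cover counting error only, and no p-value was computed.

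Neutrophils are short-lived granulocytes that leave the bone marrow with their granules already filled, follow chemokines into inflamed tissue through receptors such as CXCR2, and hold little RNA. The calcium-binding alarmins S100A8 and S100A9 are among their main cytosolic proteins. Type I interferons act on them through a complex with STAT2 and IRF9 that binds interferon-stimulated response elements, whereas interferon-gamma acts mainly through gamma-activated sequences.

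The promoters of 4 interferon-induced genes on which the comparisons below turned are shown as examples of 2 motifs. Each run covers 250 bases before to 50 bases after a RefSeq start site on GRCm38.p6, read 5′ to 3′ along the gene, with every match to 2 copies of GAAA with any 2 bases between them (core of the interferon-stimulated response element) or to TTCNNNGAA (gamma-activated sequence) on either strand in capitals. Isg15, a ubiquitin-like modifier, and Ifit1, a binder of viral RNA, stand for the type I list, Gbp2, a guanylate-binding protein, and Irf1, a transcription factor, for the interferon-gamma list. The Isg15 window lay at chr4:156200769-156201068, minus strand, the Ifit1 window at chr19:34640639-34640938, plus strand, the Gbp2 window at chr3:142620413-142620712, plus strand, and the first of 2 Irf1 windows at chr11:53769764-53770063, plus strand.
Isg15: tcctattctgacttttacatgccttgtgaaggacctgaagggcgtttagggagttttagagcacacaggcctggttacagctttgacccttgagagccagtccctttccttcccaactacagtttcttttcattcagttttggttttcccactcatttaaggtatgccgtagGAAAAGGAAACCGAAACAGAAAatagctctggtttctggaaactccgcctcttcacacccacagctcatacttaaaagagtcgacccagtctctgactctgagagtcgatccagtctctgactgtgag
Ifit1: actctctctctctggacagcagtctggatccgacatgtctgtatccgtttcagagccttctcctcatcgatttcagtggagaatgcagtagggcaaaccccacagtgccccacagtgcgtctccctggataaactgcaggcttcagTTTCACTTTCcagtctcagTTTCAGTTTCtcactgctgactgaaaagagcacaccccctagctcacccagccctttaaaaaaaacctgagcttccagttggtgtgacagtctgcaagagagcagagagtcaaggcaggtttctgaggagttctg
Gbp2: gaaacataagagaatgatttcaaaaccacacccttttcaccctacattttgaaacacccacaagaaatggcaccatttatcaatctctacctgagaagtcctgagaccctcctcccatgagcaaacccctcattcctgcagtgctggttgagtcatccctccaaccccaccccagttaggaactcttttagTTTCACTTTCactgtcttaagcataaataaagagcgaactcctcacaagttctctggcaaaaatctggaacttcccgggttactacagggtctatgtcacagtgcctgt
Irf1: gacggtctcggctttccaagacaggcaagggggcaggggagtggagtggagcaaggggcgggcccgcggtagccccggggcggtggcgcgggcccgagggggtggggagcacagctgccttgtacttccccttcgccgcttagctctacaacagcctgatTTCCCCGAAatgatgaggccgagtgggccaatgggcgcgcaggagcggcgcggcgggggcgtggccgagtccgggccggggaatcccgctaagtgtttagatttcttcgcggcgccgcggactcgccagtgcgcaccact
The Isg15 window held 3 overlapping matches to the first motif, starting 78, 72 and 66 bases before the start site, and the Ifit1 window held 2, starting 104 and 85 bases before it. Gbp2 had 1 such match 59 bases before the start site, and Irf1 had 1 match to the second motif 90 bases before it. Of other interferon-induced genes searched, Rsad2, Socs1 and Cxcl10 had the first motif. Ifit2, a type I gene, had no match to it and 1 to the second motif over 2 windows, and Slfn4 and Cd274 had neither.

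Over all 27025 genes with a RefSeq window, 3.99% had a match to the pair of GAAA copies and 9.55% a match to TTCNNNGAA in any of their windows. In the type I interferon-skewed list, 12 of 24 genes with a window had the first motif and 3 the second. In the interferon-gamma-skewed list the numbers were 11 and 10 of 18, so both motifs were common there. In the alarmin list, which also holds other neutrophil genes such as Retnlg and Asprv1, 1 of 11 genes had the first motif and none the second. Among the genes of MHC class I presentation the numbers were 5 and 1 of 16. A match is a description of the letters and not a shown binding site.

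The defining markers were highest in the labelled class. Summed over all neutrophils, S100a9 stood at 33102 CPM (UMIs divided by the total of the cells summed and scaled to 1e+06) against 49.1 in all other cells, and S100a8 at 28436 against 173. Retnlg, a resistin-like secreted protein, had 3079 against 1.81 CPM, and the lipase inhibitor G0s2 1372 against 2.81. The chemokine receptor Cxcr2 had 594 against 2.05 CPM, and the surface protein Ly6g 177 against 0.113. In each case neutrophils had the highest level of the 17 annotated classes, and for S100a8, S100a9 and Cxcr2 the next class was Infl_Mono, the inflammatory monocytes. Because the annotation was itself built on expression, these ratios describe the class and are no test of it. Of the 315 cells, 228 had at least 1 UMI of 4 or more of the 6 markers, 59 had all 6, and 6 had 1 or none. Cells with 4 or more numbered 41 of 65 in CTRL, 23 of 49 in IRF3/7, 4 of 5 in COX2i and 160 of 196 in COX2i + 5-AZA, none had all 6 in IRF3/7 or COX2i, and Ly6g was at 0 in COX2i. Outside the class, 35 cells had 4 or more. The libraries also carried the mark of the tumour construct, with Irf7 at 14909.5 CPM in the non-immune class Myofibrobl of IRF3/7 against 8.20 in CTRL, as the label says.

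**Figure D1:**
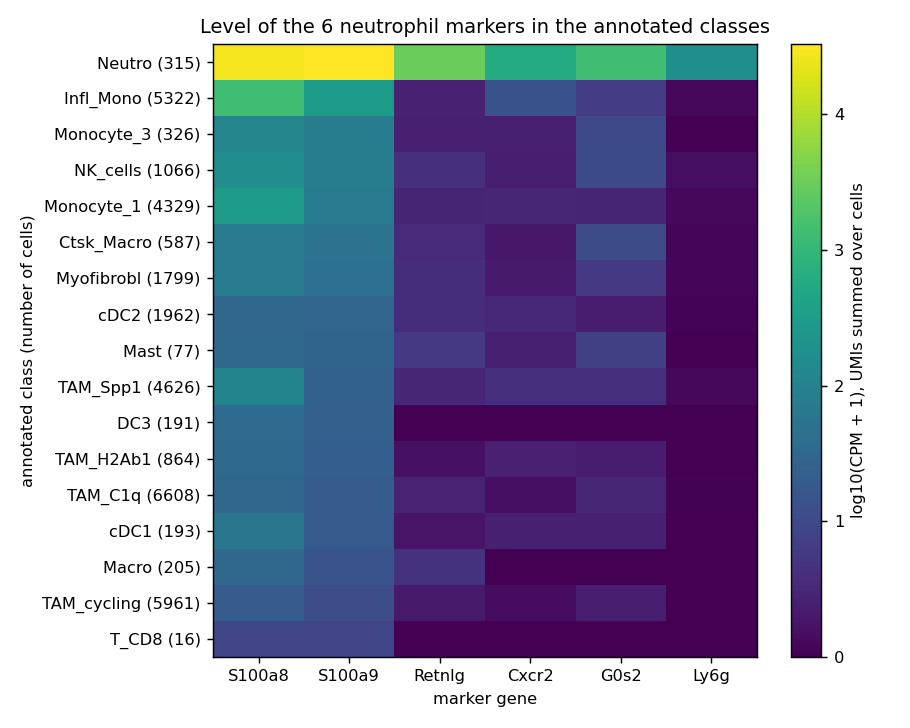
Level of the 6 neutrophil markers (columns) in each annotated class (rows, with the number of cells), as log10 of CPM + 1 of the UMIs summed over the cells of the class in all 4 libraries. The row of the 315 Neutro cells is the brightest in every column, with Infl_Mono next for S100a8 and S100a9.

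Other genes led the ratio to all other cells among genes with at least 200 UMIs in neutrophils. Ngp, a protein of the secondary granules of immature neutrophils, had 780.2 CPM against 0.117, in 45 neutrophils. Asprv1, an aspartic protease, had 847 against 0.601 CPM in 183 cells, and Il1f9, an interleukin 36 cytokine, 358 against 0.960 CPM in 173 cells. The other genes of the 15 with the highest ratio that are not among the 6 markers were the cystatin-like gene Cstdc4, Rdh12, Pglyrp1, Hdc, Slc2a3 and Lcn2, with ratios between 55.7 for the iron-sequestering Lcn2 and 728 for Cstdc4. Some genes often used for neutrophils did not mark the class here. Mmp9, a gelatinase of the tertiary granules, was 1.21-fold higher than in all other cells and stood in Ctsk_Macro, a macrophage class, at 23687 CPM.

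The neutrophil share differed widely between libraries. Neutrophils made up 65 of 8953 cells in CTRL (0.726%, 0.561 to 0.924), 49 of 6329 cells in IRF3/7 (0.774%, 0.573 to 1.02), 5 of 9133 cells in COX2i (0.0547%, 0.0178 to 0.128) and 196 of 10032 cells in COX2i + 5-AZA (1.95%, 1.69 to 2.24). The log2 ratio of shares was 1.43 (1.02 to 1.86) for COX2i + 5-AZA against CTRL, a 2.69-fold higher share, and -3.73 (-5.40 to -2.43) for COX2i against CTRL. IRF3/7 and CTRL had shares with a log2 ratio of 0.09 (-0.47 to 0.65) whose interval spans 0. That call depended on the choice of members, since cells chosen by UMIs of at least 4 of the 6 markers gave -0.78 (-1.50 to -0.10) and the annotated neutrophils with under 1% of UMIs from macrophage markers 0.90 (0.20 to 1.63). Against COX2i, the library with celecoxib alone, COX2i + 5-AZA had a share 35.7-fold higher (15.04 to 111), and 9.39-fold higher (3.38 to 36.2) among cells with more than 1500 detected genes. The other choices of cells and members gave 7.17-fold to 56.4-fold. The 5 neutrophils of COX2i allow levels but no ratios across genes. Shares are of sorted CD45+ cells, so a change in another class moves them too.

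Depth moved with these shares. The neutrophils held 308743 UMIs in CTRL, 170271 in IRF3/7, 32198 in COX2i and 720504 in COX2i + 5-AZA, with a median of 2020, 1409, 2108 and 1007.5 detected genes per cell. All other cells had medians of 2789.5, 1587, 3235 and 2627 genes. Among cells with at most 1000 detected genes, neutrophils were 15 of 100 in CTRL (15%), 11 of 634 in IRF3/7 (1.74%), 0 of 78 in COX2i (0%, exact interval up to 4.62%) and 96 of 389 in COX2i + 5-AZA (24.7%). In CTRL, IRF3/7 and COX2i + 5-AZA the share was thus highest among the cells with the fewest detected genes, whereas COX2i had no neutrophil there. From 1001 to 1500 genes the share was 6.49% in COX2i + 5-AZA, 1.05% in CTRL and 0.769% in IRF3/7. Above 1500 genes it was 0.437%, 0.531% and 0.609%, and there the ratio of COX2i + 5-AZA to CTRL turned to -0.28 (-0.95 to 0.38) on the log2 scale, with an interval that spans 0. The higher share in COX2i + 5-AZA therefore lay in cells with at most 1500 detected genes, 96 and 62 of its 196 neutrophils, against 15 and 6 of 65 in CTRL. Of the neutrophils above 1500 genes, 33 of 44 in CTRL, 7 of 22 in IRF3/7 and 10 of 38 in COX2i + 5-AZA held 1% or more macrophage-marker UMIs. The part that the number of detected genes and this macrophage RNA played in these shares was not tested.

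**Figure D2:**
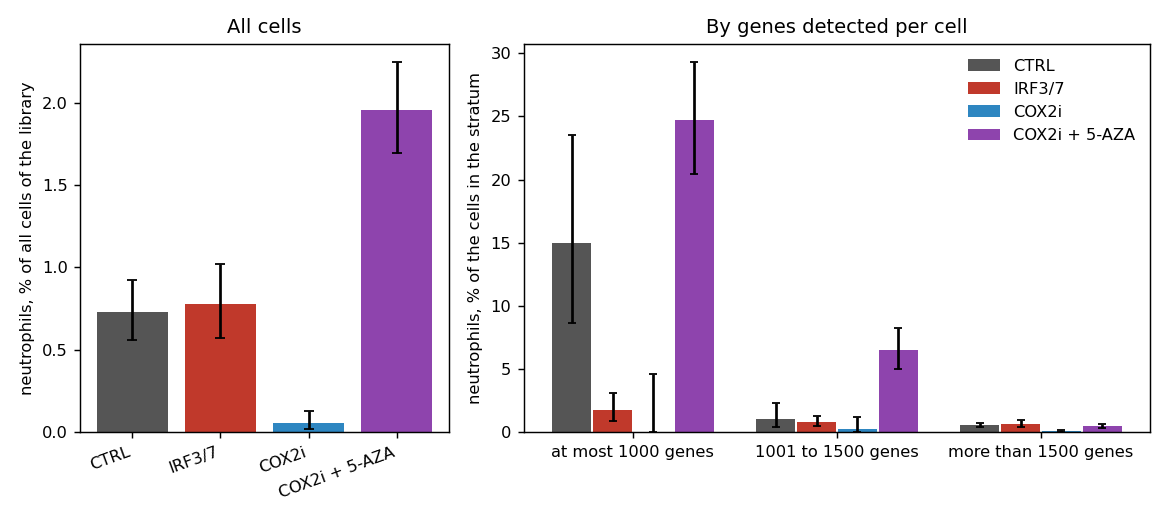
Neutrophils as a percentage of all cells of each library (left) and of the cells within each range of detected genes per cell (right). Bars are shares and lines exact 95% intervals that cover counting error only. COX2i + 5-AZA has the highest share over all cells, 1.95%, and in both ranges up to 1500 genes, but 0.437% against 0.531% in CTRL above 1500 genes. In that last range 33 of 44 CTRL neutrophils and 10 of 38 of COX2i + 5-AZA held 1% or more macrophage-marker UMIs.

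RNA of macrophages stood beside the neutrophil genes in many CTRL cells. The 8 macrophage markers C1qa, C1qb, C1qc, Apoe, Mrc1, Adgre1, Mertk and Trem2 held 1% or more of the UMIs in 34 of 65 neutrophils in CTRL, 8 of 49 in IRF3/7, 2 of 5 in COX2i and 10 of 196 in COX2i + 5-AZA. Their summed level was 35217 CPM in CTRL neutrophils, close to the 37343 CPM of the other CTRL cells, and 7435, 22424 and 5034 CPM in IRF3/7, COX2i and COX2i + 5-AZA. No macrophage marker was at 0 in CTRL, IRF3/7 or COX2i + 5-AZA, and Mertk, a receptor for dying cells, was at 0 in COX2i. Apoe, the lipid carrier of macrophages, reached 24383 CPM in CTRL, 4516 in IRF3/7, 6336 in COX2i and 1008 in COX2i + 5-AZA.

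The 31 CTRL neutrophils under 1% differed from the 34 at or above it. They had a median of 1110 against 2623 detected genes, and S100a9 at 28207 against 6918 CPM. The part of this RNA in the differences from CTRL was not tested, and the main ones are therefore given below also for the cells under 1%, a limit chosen after seeing the data. With that limit the share of neutrophils was 0.346% in CTRL, 0.648% in IRF3/7 and 1.85% in COX2i + 5-AZA. The 10 dendritic cell markers, which include Cd74 and 3 MHC class II genes, summed to 7003 CPM in CTRL, 3917 in IRF3/7, 3292 in COX2i and 6425 in COX2i + 5-AZA, and held up to 10.1% of the UMIs of a CTRL cell. Of these markers Flt3 and Xcr1 were at 0 in all 4 libraries. Lymphocyte markers were near 0. The 10 NK and T cell markers summed to at most 64.6 CPM, with Cd3e, Cd3g, Cd8a and Cd8b1 at 0 in all 4 libraries, and the 3 B cell markers to at most 17.6, with Cd79a and Ms4a1 at 0. The 7 monocyte markers summed to 5399 CPM in CTRL and 13731 in IRF3/7, beside 4059.8 and 12149.6 in all other cells, and held up to 3.25% of a cell's UMIs in IRF3/7. The part of dendritic cell and monocyte RNA in the results was not tested. The same droplet barcode occurred in another library for 103 of the 315 neutrophils (32.7%) and for 29.0% of other cells. Each library had its own probe barcode.

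**Figure D3:**
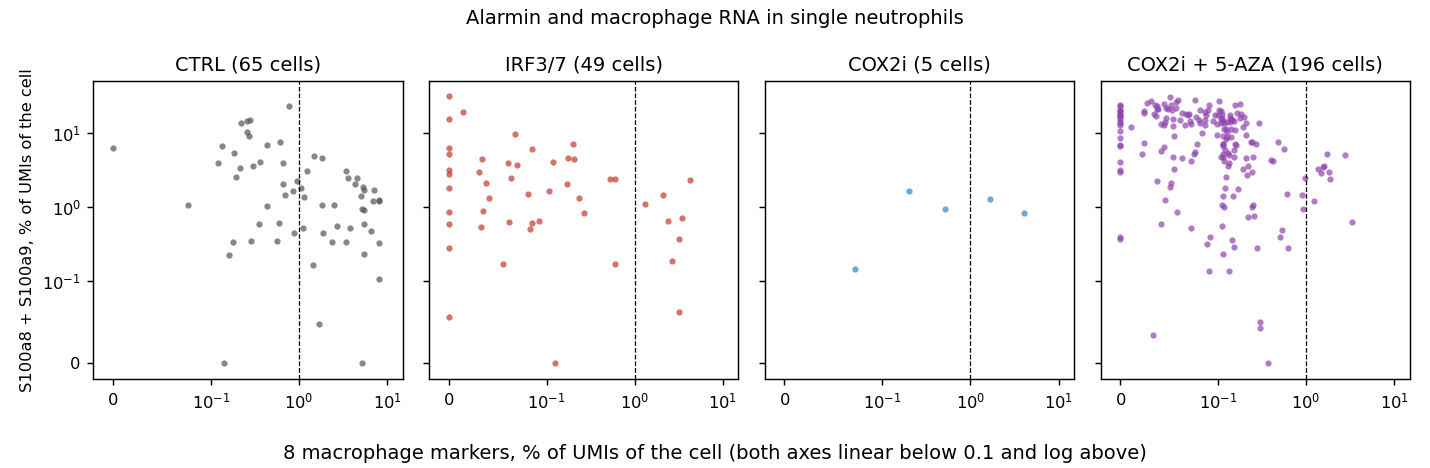
Each point is 1 neutrophil, with the 8 macrophage markers (x) and S100a8 plus S100a9 (y) as percentages of its UMIs, by library; both axes are linear below 0.1 and logarithmic above, and the dashed line marks 1%. In COX2i + 5-AZA 186 of 196 cells lie left of the line and most lie high, with a median of 8.75% on the y axis, whereas in CTRL 34 of 65 lie right of it.

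The alarmin levels of neutrophils were highest in COX2i + 5-AZA. S100a8 and S100a9 together held a median of 1.40% of a cell's UMIs in CTRL, 1.61% in IRF3/7, 0.943% in COX2i and 8.75% in COX2i + 5-AZA, and single cells reached 22.99%, 31.6%, 1.65% and 30.8%. The ranges of single cells overlapped between all libraries. S100a8 stood at 9539 CPM in CTRL, 16092 in IRF3/7, 3913 in COX2i and 40547 in COX2i + 5-AZA, and S100a9 at 13027 CPM in CTRL, 19657 in IRF3/7, 5249 in COX2i and 46126 in COX2i + 5-AZA. The log2 ratio of COX2i + 5-AZA to CTRL was 2.09 (2.03 to 2.14) for S100a8 and 1.82 (1.78 to 1.87) for S100a9, and in the cells under 1% macrophage markers 1.08 and 0.91. Both genes were also highest in this library in the inflammatory monocytes, where S100a8 stood at 51.6, 839, 169 and 3556 CPM in CTRL, IRF3/7, COX2i and COX2i + 5-AZA and S100a9 at 14.5, 99.9, 27.8 and 1069.8. The levels stayed below those of neutrophils in each library, but the ratio of COX2i + 5-AZA to CTRL was larger in the monocytes.

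Over the whole comparison of COX2i + 5-AZA with CTRL, 3602 genes had at least 50 UMIs in both libraries together, of which 354 (9.83%) were at least 2-fold higher and 446 (12.4%) at least 2-fold lower. Scaling by size factors gave 466 and 287, and the cells under 1% gave 302 and 180. Of the 11 genes of the alarmin list with that many UMIs, 10 were at least 2-fold higher and 0 at least 2-fold lower. The median log2 ratio of the list was 2.00 beside -0.36 over all genes with at least 20 UMIs. The gene within 2-fold was S100a11, at 0.88. Wfdc17, a secreted protein with a whey-acidic domain, had 492 CPM in CTRL, 839.8 in IRF3/7, 124 in COX2i and 2042 in COX2i + 5-AZA. Among neutrophils with more than 1500 genes, S100a8 and S100a9 held a median of 2.92% in COX2i + 5-AZA and 1.04% in CTRL, and among those with at most 1000 genes 12.5% and 4.07%. In the cells under 1% the list median was 1.08. In cells with more than 1500 genes it was 1.00. Both values lie below the one over all neutrophils.

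For IRF3/7 against CTRL, 1952 genes had at least 50 UMIs, with 238 (12.2%) at least 2-fold higher and 311 (15.9%) at least 2-fold lower. Size factors gave 289 and 242, and the cells under 1% gave 147 and 56. Of 10 genes of the alarmin list, 2 were at least 2-fold higher and none was lower. The 2 were the protease inhibitor Slpi, with a log2 ratio of 1.65 (1.39 to 1.92), and the acute-phase gene Saa3. All 11 with at least 20 UMIs had a log2 ratio above 0, which for 2 of them is a lower bound. The list median was 0.77 beside -0.32 over all genes and, in the cells under 1%, -0.04. Saa3 had 0 UMIs in CTRL and COX2i, 138 UMIs in 14 neutrophils of IRF3/7 (810.5 CPM) and 419 in 32 of COX2i + 5-AZA (582 CPM). Against a floor of 3 UMIs per library its log2 ratio to CTRL was at least 6.38 in IRF3/7 and at least 5.90 in COX2i + 5-AZA.

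Between COX2i + 5-AZA and IRF3/7, 2989 genes had at least 50 UMIs, with 265 (8.87%) at least 2-fold higher and 200 (6.69%) at least 2-fold lower. Of 11 genes of the alarmin list, 6 were at least 2-fold higher in COX2i + 5-AZA and none was lower. These were S100a8, S100a9, Retnlg, Wfdc17, the WAP-domain gene Wfdc21 and Asprv1, with log2 ratios from 1.21 to 1.94. The list median was 1.21 (1.14 in the cells under 1%). In cells with more than 1500 genes it was 0.08, close to 0. Ly6g separated these libraries most among the markers, with 10 UMIs in 5 cells of CTRL, 2 in 2 of IRF3/7, 0 in COX2i and 206 in 79 of COX2i + 5-AZA. With every cell thinned to 1000 UMIs, 43 of 196 neutrophils of COX2i + 5-AZA (21.9%) had a Ly6g UMI against 1 of 65 in CTRL and 0 of 49 in IRF3/7 (interval up to 7.25%). None of 260 thinned cDC2 cells, a dendritic class that lacks Ly6g, had one in COX2i + 5-AZA (up to 1.41%), where the median depth was 4762 UMIs for cDC2 cells and 2626.5 for neutrophils.

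Genes of secondary and tertiary granules, which are made while neutrophils mature in the marrow, were mixed. Of 17 measured in COX2i + 5-AZA against CTRL, 9 were at least 2-fold higher and 2 at least 2-fold lower, beside 9.83% and 12.4% of all genes, with a median of 1.03 (0.33 in the cells under 1%). Lcn2 had 619 CPM in CTRL, 2467 in IRF3/7, 124 in COX2i and 2987 in COX2i + 5-AZA. The collagenase Mmp8 had 188 CPM in CTRL, 717 in IRF3/7, 0 in COX2i and 1312 in COX2i + 5-AZA, a log2 ratio to CTRL of 2.80 (2.42 to 3.21) in COX2i + 5-AZA and 1.93 (1.47 to 2.41) in IRF3/7. Both genes were higher in these libraries also in the cells under 1%, where their log2 ratios to CTRL lay between 1.12 and 2.33. In IRF3/7 against CTRL, 7 of 13 were at least 2-fold higher and 3 lower, beside 12.2% and 15.9% of all genes, with a median of 0.58. Among the lower ones were the galactosyltransferase gene B4galt1 and Mmp9. Mmp9 had 531 CPM in CTRL, 217 in IRF3/7, 248 in COX2i and 955 in COX2i + 5-AZA, and lay at 2.14 (2.02 in the cells under 1%) in COX2i + 5-AZA against IRF3/7. In that comparison 6 of 17 were at least 2-fold higher and 2 lower, beside 8.87% and 6.69% of all genes, and the lower ones were Ltf, encoding lactoferrin, and Ngp.

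Ngp in CTRL and IRF3/7, and Ltf in all libraries that held it, came from few cells. Ngp had 107 UMIs in 2 neutrophils of CTRL, 415 in 4 of IRF3/7, 0 in COX2i and 439 in 39 of COX2i + 5-AZA. Cells with 10 or more Ngp UMIs numbered 1, 2, 0 and 11, and they held 12 of 15, 129 of 130 and 34 of 40 Ltf UMIs in CTRL, IRF3/7 and COX2i + 5-AZA. In these cells S100a8 and S100a9 held a median of 22.99%, 25.3% and 23.4% of UMIs, high in each library's range. A single cell held 80%, 82.3% and 75% of the Ltf UMIs in these libraries, so the Ltf ratios rest mostly on 1 cell per library. The 5 primary-granule genes in the table gave 2 with enough UMIs, the lysozyme gene Lyz2 and the protease gene Ctsc, with log2 ratios of -0.89 and 0.03 in COX2i + 5-AZA against CTRL.

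Type I interferon-induced genes were far higher in IRF3/7 neutrophils than in CTRL neutrophils, and at a level in between in COX2i + 5-AZA. Of 29 genes of the type I interferon-skewed list with at least 50 UMIs, 28 were at least 2-fold higher in IRF3/7 than in CTRL, beside 12.2% of all genes, and none was lower. The list median was 4.20 beside -0.32 over all genes with at least 20 UMIs. The exception was Siglec1, a macrophage sialic-acid receptor, at 0.66. Isg15 stood at 314 CPM in CTRL, 5756 in IRF3/7, 1801 in COX2i and 2071 in COX2i + 5-AZA, a log2 ratio of 4.20 (3.89 to 4.51) for IRF3/7 against CTRL. Slfn4, a myeloid schlafen protein, had 275 CPM in CTRL, 6360.4 in IRF3/7, 1087 in COX2i and 1746 in COX2i + 5-AZA. Neutrophils held more of it in each library than any other class with at least 20 cells, in COX2i from 5 neutrophils. Irf7, the transcription factor that amplifies interferon production, had 107 CPM in CTRL, 3218 in IRF3/7, 528 in COX2i and 824 in COX2i + 5-AZA. Because the tumour cells of IRF3/7 overexpressed Irf7, RNA from them cannot be told apart from the neutrophils' own in that library.

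Rsad2, which encodes the antiviral enzyme viperin, had 58.3 CPM in CTRL, 2784 in IRF3/7, 1087 in COX2i and 802 in COX2i + 5-AZA. The RNA-binding protein gene Ifit2 had 3 UMIs in CTRL and 230 in IRF3/7, a log2 ratio of 7.12 (5.55 to 9.41), and Ifit1, whose promoter is shown above, 3 and 184 UMIs and 6.80 (5.23 to 9.09). They were among the 6 largest ratios of that comparison over genes with at least 100 CPM in the higher library, an order that depends on the floor of 3 UMIs set for genes at 0 in CTRL. The others were the complement gene Cfb, the acute-phase gene Saa3, the ISG15 protease gene Usp18 and Ifit1bl1, with log2 ratios of 6.59 (5.01 to 8.88) for Cfb, at least 6.38 for Saa3, 6.26 (4.68 to 8.56) for Usp18 and at least 6.0015 for Ifit1bl1. In the cells under 1% macrophage markers the list median was 3.89, with Isg15 at 3.52.

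In COX2i + 5-AZA, 28 of 29 type I genes were at least 2-fold higher than in CTRL, beside 9.83% of all genes, with a median of 2.35 (2.24 in the cells under 1%), and Siglec1 was lower at -1.32. Isg15 had a log2 ratio of 2.72 (2.42 to 3.03) and the antiviral membrane protein gene Ifitm3 of 1.71 (1.49 to 1.94). Compared with IRF3/7, 23 of 30 were at least 2-fold lower in COX2i + 5-AZA, beside 6.69% of all genes, and none was higher. The median was -1.69 (-1.56 in the cells under 1%). The other 7 genes, Ddx58, Zbp1, Ifi204, Ifitm3, Oasl2, Slfn1 and Trim30a, lay between -0.99 and -0.41, so all 30 had a negative ratio. Among the 6 largest falls of that comparison were the type I genes Ifit1bl1, Ifi208 and Phf11d, with 0, 364, 31.1 and 30.5 CPM of the DNA-sensor gene Ifi208 in the 4 libraries.

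Per cell, the summed level of the type I list had a median of 2647 CPM in CTRL neutrophils (range 0 to 22924), 41511 in IRF3/7 (10616 to 107431) and 14122 in COX2i + 5-AZA (903 to 107203). The lower quartile of IRF3/7, 29993 CPM, lay above the highest CTRL cell. The inflammatory monocytes had medians of 14999, 38539.6 and 17195 CPM in the same libraries, so CTRL neutrophils stood well below the monocytes of their own library and IRF3/7 neutrophils close to theirs. All other cells together went from 2023 CPM in CTRL to 32912 in IRF3/7 and 6357 in COX2i + 5-AZA. Thinned to 1000 UMIs, 23.1% of neutrophils in CTRL, 89.8% in IRF3/7 and 71.4% in COX2i + 5-AZA had an Isg15 UMI, beside 9.15%, 93.6% and 35.8% of cDC2 cells. The median depth before thinning was 3900, 3034 and 2626 UMIs in neutrophils and 4106, 3137 and 4762 in cDC2 cells. No class lacks Isg15, so free RNA could not be set apart in these shares.

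**Figure D4:**
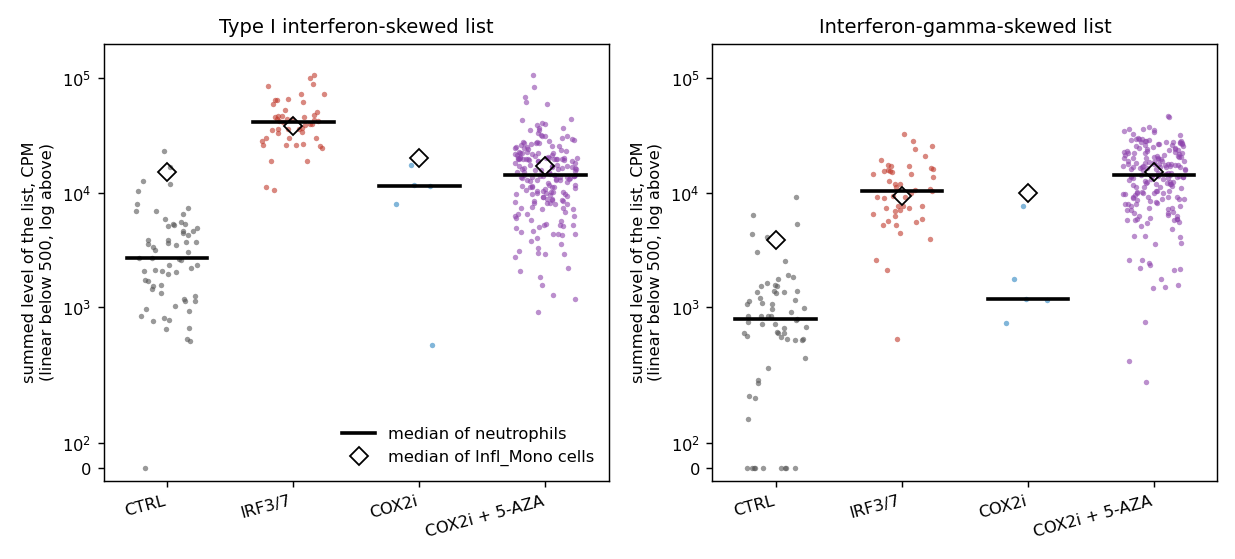
Summed level in CPM of the type I interferon-skewed list (left) and the interferon-gamma-skewed list (right) in each neutrophil (points), by library, with the median of the neutrophils (line) and of the Infl_Mono cells of the same library (diamond); the axis is linear below 500 CPM and logarithmic above. The median of IRF3/7 neutrophils is highest for the type I list, 41511 CPM, and that of COX2i + 5-AZA for the gamma list, 14143 CPM.

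Interferon-gamma-induced genes were high in both libraries. Of the genes with at least 50 UMIs, 12 of 13 were at least 2-fold higher in IRF3/7 than in CTRL and 19 of 21 in COX2i + 5-AZA than in CTRL, beside 12.2% and 9.83% of all genes, with none lower. The medians were 3.23 and 3.30 (3.15 and 2.82 in the cells under 1%). Irf8, a factor of monocyte and dendritic cell development, was within 2-fold in both, and Wars within 2-fold in COX2i + 5-AZA. Gbp2 stood at 84.2 CPM in CTRL, 2285 in IRF3/7, 435 in COX2i and 3847 in COX2i + 5-AZA, a log2 ratio to CTRL of 4.76 (4.19 to 5.39) in IRF3/7 and 5.51 (4.96 to 6.13) in COX2i + 5-AZA. Irf1 had 198 CPM in CTRL, 1486 in IRF3/7, 155 in COX2i and 2059.7 in COX2i + 5-AZA. In IRF3/7 and in COX2i + 5-AZA neutrophils held the highest Irf1 level of the classes with at least 20 cells.

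Between COX2i + 5-AZA and IRF3/7 the gamma list was near balance, unlike the type I list, with 2 genes at least 2-fold higher and 2 lower of 22, close to the 8.87% and 6.69% of all genes, and a median of -0.07 (-0.05 in the cells under 1%). Higher were Nos2 and the guanylate-binding protein gene Gbp2b at 1.11, and lower were the GTPase genes Iigp1 at -1.23 and Gbp6 at -1.02. Socs1, an inhibitor of interferon signalling, had 4, 64, 0 and 383 UMIs in the 4 libraries, and a log2 ratio of 5.36 (3.99 to 7.24) for COX2i + 5-AZA against CTRL. Per cell, the gamma list had a median of 782 CPM in CTRL, 10301 in IRF3/7 and 14143 in COX2i + 5-AZA, beside 3823, 9328 and 15081 in Infl_Mono cells. Within COX2i + 5-AZA, neutrophils with at most 1000 genes had 19946 CPM of the type I list and 16325 of the gamma list, and those with more than 1500 genes 9672 and 11011. In CTRL the same ranges of genes gave 5759 and 524 CPM, and 2815 and 1348, so both lists were higher in COX2i + 5-AZA in small and in large cells.

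Nos2 and Cd274 stood out among the gamma genes. Nos2, which encodes the inducible nitric oxide synthase, had 1 UMI in CTRL, 16 UMIs in 6 neutrophils of IRF3/7, 4 in 1 of COX2i and 477 in 77 of COX2i + 5-AZA. The levels were 3.24, 94.0, 124 and 662 CPM, and the log2 ratio of COX2i + 5-AZA to CTRL was 7.68 (5.19 to 12.98), among the 6 largest rises of that comparison over genes with at least 100 CPM in the higher library. In COX2i + 5-AZA neutrophils had the highest Nos2 level of 16 classes, above Monocyte_1 at 282 and Infl_Mono at 211 CPM, whereas in CTRL and IRF3/7 Monocyte_1 was highest at 288 and 212 CPM. Thinned to 1000 UMIs, 55 of 196 neutrophils of COX2i + 5-AZA had a Nos2 UMI (28.1%), against 3 of 260 cDC2 cells (1.15%) and 3 of 49 neutrophils of IRF3/7. The other genes among the 6 largest rises over CTRL were Saa3, the Ly6 family gene Ly6i at 5.62 (3.75 to 8.68), Gbp2, Socs1 and the macrophage elastase gene Mmp12 at 5.06 (2.54 to 10.38), the last with 108 CPM beside 608 in the other cells of the library. In the cells under 1%, with 0 CPM of Mmp12 in CTRL, its log2 ratio was at least 1.41, a bound set by the floor. Once the profile of the other cells of each library was subtracted, Mmp12 stood at the floor in both libraries. The value of -2.45 obtained there is therefore no measured ratio.

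Cd274, which encodes the checkpoint ligand PD-L1, stood at 64.8 CPM in CTRL, 963 in IRF3/7, 93.2 in COX2i and 1477 in COX2i + 5-AZA. The log2 ratio to CTRL was 3.89 (3.22 to 4.64) in IRF3/7 and 4.51 (3.88 to 5.23) in COX2i + 5-AZA, and 3.00 and 3.64 in the cells under 1%. In COX2i + 5-AZA neutrophils had the highest Cd274 level of the classes, above the mature dendritic cells of DC3 at 1012 CPM, and in IRF3/7 they came after DC3 at 1452. The share of neutrophils with a Cd274 UMI after thinning was 7.69% in CTRL, 53.1% in IRF3/7 and 69.4% in COX2i + 5-AZA, beside 7.60%, 32.6% and 26.9% in cDC2 cells, so in CTRL both classes had nearly the same share.

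Genes of MHC class I presentation moved with the interferon lists. Of those with at least 50 UMIs, 10 of 13 were at least 2-fold higher in IRF3/7 and 14 of 16 in COX2i + 5-AZA than in CTRL, beside 12.2% and 9.83% of all genes, with medians of 1.66 and 1.46 (1.72 and 1.77 in the cells under 1%), and none was lower. The peptide transporter gene Tap1 had 133 CPM in CTRL, 611 in IRF3/7, 342 in COX2i and 475 in COX2i + 5-AZA, and the immunoproteasome gene Psmb9 204 CPM in CTRL, 763 in IRF3/7, 186 in COX2i and 630.1 in COX2i + 5-AZA. H2-K1, a classical class I heavy chain, had 632 CPM in CTRL, 1556 in IRF3/7, 373 in COX2i and 1191 in COX2i + 5-AZA. Between COX2i + 5-AZA and IRF3/7 the median was -0.09, and of 16 genes 2 were at least 2-fold lower, beside 6.69% of all genes, the class Ib genes H2-Q7 at -1.50 and H2-Q6 at -1.34, near-identical copies whose separate levels are uncertain. The class II genes, by contrast, did not follow them, with 0 of 7 at least 2-fold higher in either library. Cd74, the invariant chain, had 3158 CPM in CTRL, 2061 in IRF3/7, 2205 in COX2i and 3312 in COX2i + 5-AZA, and 6422, 1633 and 2749.9 CPM in the cells under 1% of CTRL, IRF3/7 and COX2i + 5-AZA.

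**Figure D5:**
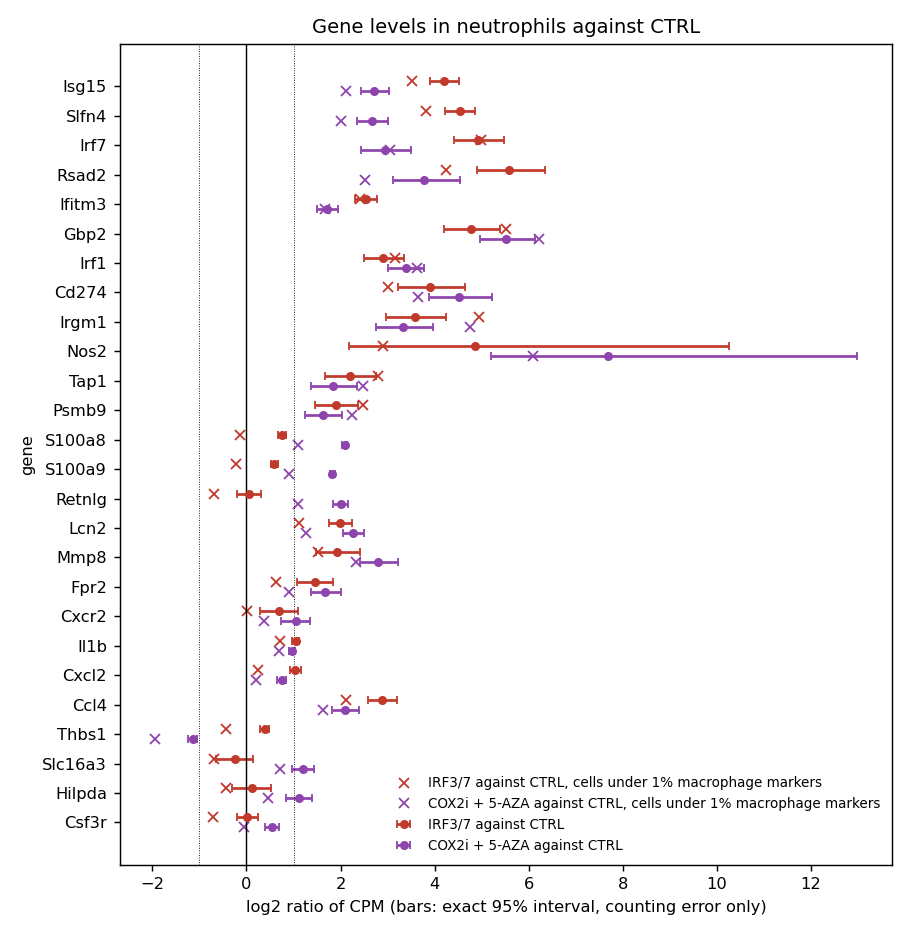
Log2 ratio of CPM in neutrophils of IRF3/7 (red) and COX2i + 5-AZA (purple) to CTRL for 26 genes; points are all annotated neutrophils with exact 95% intervals that cover counting error only, crosses the cells under 1% macrophage-marker UMIs, and dotted lines mark 2-fold. The interferon genes from Isg15 to Psmb9 lie beyond 2-fold with both sets of cells, whereas S100a8 lies at 2.09 and 1.08 for COX2i + 5-AZA. Irf7 is also a gene of the tumour construct in IRF3/7.

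Among chemoattractant receptors, 4 of 10 were at least 2-fold higher in IRF3/7 than in CTRL and 7 of 12 in COX2i + 5-AZA, beside 12.2% and 9.83% of all genes. The medians were 0.25 and 1.04, and 0.02 and 0.17 in the cells under 1%. The formyl peptide receptor gene Fpr2 had 308 CPM in CTRL, 846 in IRF3/7, 155 in COX2i and 985 in COX2i + 5-AZA. Ccrl2, a receptor that presents the chemoattractant chemerin, had 551 CPM in CTRL, 2361 in IRF3/7, 342 in COX2i and 1664 in COX2i + 5-AZA with log2 ratios to CTRL of 2.26 and 1.84 in the cells under 1%. Cxcr2, by contrast, had 349.8 CPM in CTRL, 564 in IRF3/7, 248 in COX2i and 722 in COX2i + 5-AZA, and in the cells under 1% its log2 ratios were 0.02 and 0.38. The complement receptor gene C3ar1 was lower, with 699.6 CPM in CTRL, 382 in IRF3/7, 404 in COX2i and 223 in COX2i + 5-AZA. Between COX2i + 5-AZA and IRF3/7 the median was 0.29, with Cxcr1 at 3.80 (1.27 to 9.13) and the leukotriene receptor gene Ltb4r1 at 1.47 at least 2-fold higher and 1 gene lower of 12, beside 8.87% and 6.69% of all genes. That median was -0.12 in neutrophils with more than 1500 genes.

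Neutrophils held the highest levels of several cytokine genes in the tumours. Il1b, encoding interleukin 1β, stood at 7080.3 CPM in CTRL, 14588 in IRF3/7, 7423 in COX2i and 13885 in COX2i + 5-AZA, and neutrophils led the classes with at least 20 cells in each library, ahead of cDC2 at 3379 CPM in CTRL and of TAM_Spp1, a macrophage class, at 5049 in COX2i + 5-AZA. Cxcl2, a ligand of CXCR2, stood at 4181 CPM in CTRL, 8604 in IRF3/7, 3541 in COX2i and 7009 in COX2i + 5-AZA, also the highest class in each library. For COX2i both first places rest on 5 neutrophils, fewer than the 20 cells asked of the other classes. Of the cytokine and chemokine genes with at least 50 UMIs, 10 of 20 were at least 2-fold higher and 2 lower in IRF3/7 than in CTRL, beside 12.2% and 15.9% of all genes, with a median of 1.04 (0.53 in the cells under 1%). Il1b was 1.04 (0.96 to 1.13) and Cxcl2 1.04 (0.93 to 1.15), and both lay under 2-fold in the cells under 1%, at 0.71 and 0.24. With the profile of the other cells of each library subtracted they stood at -0.070 and -0.011, and the list median at 0.0038. The T cell-attracting Cxcl10 had 22 UMIs in 3 CTRL neutrophils, 86.4% of them in 1 cell, against 273 in 33 of IRF3/7 and 429 in 73 of COX2i + 5-AZA. Ccl4, a chemokine gene, had 359.5 CPM in CTRL, 2660.5 in IRF3/7, 248 in COX2i and 1545 in COX2i + 5-AZA, a log2 ratio to CTRL of 2.89 (2.59 to 3.20) in IRF3/7 and 2.12 in the cells under 1%. Ccl4 in IRF3/7 and COX2i + 5-AZA was higher in neutrophils than in any other class of those libraries with at least 20 cells.

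In COX2i + 5-AZA against CTRL, 9 of 23 cytokine genes were at least 2-fold higher and 4 lower, beside 9.83% and 12.4% of all genes, with a median of 0.75 (0.29 in the cells under 1%). Lower were Cxcl3, Ccl9, Thbs1 and Cxcl16. Thbs1, which encodes the matrix protein thrombospondin 1, had 6517 CPM in CTRL, 8528 in IRF3/7, 7982 in COX2i and 2947 in COX2i + 5-AZA, and its log2 ratio was -1.15 (-1.23 to -1.06) to CTRL and -1.53 (-1.63 to -1.44) to IRF3/7. Against IRF3/7, 6 of 24 were at least 2-fold lower, beside 6.69% of all genes, with Cxcl1, Cxcl3, Thbs1, Cxcl10, Ccl3 and Tnfsf14 from -1.59 to -1.06, and Il6 and Ccl6 higher, a share close to the 8.87% of all genes. Il6 had 0 UMIs in CTRL and COX2i, 8 in 3 cells of IRF3/7 and 149 in 5 cells of COX2i + 5-AZA, so its ratio rests on these 5 cells.

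Genes of hypoxia and glycolysis separated COX2i + 5-AZA from IRF3/7. Of 24 measured, 11 were at least 2-fold higher in COX2i + 5-AZA, beside 8.87% of all genes, and none was lower, with a median of 0.97 beside 0.02 over all genes (1.04 in the cells under 1%). The lactate transporter gene Slc16a3 had 567 CPM in CTRL, 476 in IRF3/7, 590.1 in COX2i and 1306 in COX2i + 5-AZA, a log2 ratio of 1.46 (1.13 to 1.80). The glucose transporter gene Slc2a1 had 308 CPM in CTRL, 311 in IRF3/7, 279.5 in COX2i and 712 in COX2i + 5-AZA. Egln3, a prolyl hydroxylase gene induced by hypoxia, had 11, 3, 0 and 116 UMIs, a log2 ratio of 3.19 (1.61 to 5.49). The glycolytic enzyme genes Aldoa, Pgk1, Tpi1, Pgam1, Gpi1 and Pfkl lay between 1.14 and 1.55. Against CTRL, 7 of 26 were at least 2-fold higher in COX2i + 5-AZA, beside 9.83% of all genes (median 0.47, and 0.55 in the cells under 1%), and 2 of 19 were at least 2-fold lower in IRF3/7, Tpi1 and Pgam1, a share below the 15.9% of all genes, with a median of -0.32, the same as that of all genes. All other cells of COX2i + 5-AZA held 7368 CPM of the list against 4997 in IRF3/7, and the neutrophils 9936 against 5203.

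The largest falls against CTRL included macrophage genes. In IRF3/7 they included the Fc-receptor-like scavenger gene Fcrls, Pmepa1, Ctla2a, the cathepsin K gene Ctsk and the integrin gene Itga6, each with at most 3 UMIs from 1 IRF3/7 cell. Fcrls had 482 UMIs in CTRL and 3 in IRF3/7, a log2 ratio of -6.47 (-8.75 to -4.91), with 1561 CPM in CTRL neutrophils and 2361 CPM in the other CTRL cells. The cells under 1% macrophage markers had 147 CPM of Fcrls in CTRL and 0 in IRF3/7, so the log2 ratio of at most -2.68 is a bound set by the floor. The IRF3/7 cells under 1% also had 0 CPM of Pmepa1, Itga6 and Ctsk. Their log2 ratios there, at most -1.30, -0.98 and -5.13, are thus bounds set by the floor. Over all neutrophils they were -5.79, -5.10 and -5.46. Ctla2a went from -5.63 to -1.56, with 22.6 CPM in CTRL and 7.63 in IRF3/7. In COX2i + 5-AZA the 6 largest falls were Ctsk, Apoe, Ctla2a, Ctla2b, the scavenger receptor gene Stab1 and Fcrls, from -3.32 to -6.54. In the cells under 1% Ctla2a, at -0.41, was within 2-fold, Fcrls stood at -1.43, Stab1 at -2.44, Ctla2b at -2.73, Apoe at -3.03 and Ctsk at -7.88. A single cell held 56.2% of the Ctsk UMIs of CTRL and 50% of those of Ctla2a. Of these 8 genes, 6 were lower in CTRL neutrophils than in the other CTRL cells, and Ctla2a and Apoe were somewhat higher, Ctla2a at 292 beside 203 CPM. In COX2i + 5-AZA against IRF3/7 the largest rises included Ly6g at 4.61 (2.73 to 7.66), the maltase gene Mgam, Cdc42ep2, the AP-1 gene Fosl1 and Egln3, and the 6 largest falls Ms4a8a, Ltf, Ifit1bl1, Ifi208, Phf11d and Frmd4a. Mgam had 3, 1, 0 and 85 UMIs, the last in 56 cells.

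Other lists are given in the order IRF3/7 against CTRL, COX2i + 5-AZA against CTRL and COX2i + 5-AZA against IRF3/7, with medians over genes with at least 20 UMIs and counts over those with at least 50. Over all genes 12.2%, 9.83% and 8.87% were at least 2-fold higher and 15.9%, 12.4% and 6.69% at least 2-fold lower, and many of the shares below lie near these. Genes that control interleukin 1 had medians of 0.75, 0.78 and -0.07, and 4, 4 and 0 of 8, 11 and 11 genes were at least 2-fold higher, with none lower. Casp4, an inflammatory caspase gene, stood at 3.07 (2.06 to 4.31) in COX2i + 5-AZA against CTRL. The NADPH oxidase, which makes the oxidative burst, had medians of -0.01, 0.23 and 0.16, and among its 6 genes 1, 0 and 0 were higher and none lower. Receptors for growth factors and survival genes had medians of 0.35, 0.08 and 0.14, with 1, 1 and 1 of 11, 11 and 11 higher and 1, 0 and 0 lower. Csf3r, the receptor for the neutrophil growth factor G-CSF, had 1545 CPM in CTRL, 1562 in IRF3/7, 808 in COX2i and 2246 in COX2i + 5-AZA. Pattern recognition and Fc receptors had medians of -0.01, 0.40 and 0.15, with 5, 7 and 3 of 19, 22 and 22 higher and 2, 1 and 0 lower. The Fc receptor gene Fcgr4 was highest of them in both comparisons with CTRL, with 353 CPM in CTRL, 1644 in IRF3/7, 559 in COX2i and 1289 in COX2i + 5-AZA. Adhesion and trafficking genes had medians of 0.05, 0.68 and 0.60, with 2, 3 and 3 of 11, 12 and 11 higher and 3, 1 and 0 lower.

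Interferon receptors and their signalling genes had medians of 0.52, 0.35 and -0.08, with 5, 4 and 0 of 12, 12 and 12 higher and 2, 1 and 1 lower. The receptor gene Ifngr1 was among the lower ones, with 544 CPM in CTRL, 247 in IRF3/7, 714 in COX2i and 176 in COX2i + 5-AZA, whereas Stat2, a transducer of type I interferon signals, lay at 3.09 and 1.23 against CTRL. Transcription factors of maturation had medians of 0.41, 0.29 and -0.21, with 4, 3 and 1 of 20, 20 and 20 higher and 1, 1 and 1 lower. Genes described in tumour neutrophils had 0.07, 0.09 and 0.04, with 6, 6 and 2 of 23, 25 and 24 higher and 3, 3 and 2 lower, and immediate early and stress genes 0.18, 0.17 and -0.33, with 2, 1 and 1 of 15, 15 and 15 higher and 1, 0 and 2 lower. MHC class II genes had -0.52, -0.07 and 0.46, with none higher and 1, 0 and 1 of 7, 7 and 8 lower. Genes of prostaglandins and leukotrienes had -0.44, 0.31 and 0.73, with 0, 2 and 3 of 3, 9 and 8 higher and 0, 1 and 0 lower. Ptgs2, which encodes COX2 itself, had 1649 CPM in CTRL, 2713 in IRF3/7, 1273 in COX2i and 2046 in COX2i + 5-AZA in neutrophils. The extracellular trap list gave 0.67, 0.33 and -0.03, with 0, 1 and 0 of 3, 4 and 4 higher and none lower, and the primary granule list 0.03 and -0.87 against CTRL, with 1 of 2 genes, Lyz2, lower in IRF3/7. Of the 21 cell-cycle genes in the table, none had 50 UMIs in IRF3/7 and CTRL together and 1, Pcna, in the other comparisons, where it lay within 2-fold. The list medians were -0.53, -0.57 and 0.09.

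The 5 neutrophils of COX2i had 2482, 4029, 4133, 7854, 13700 UMIs. S100a8 plus S100a9 held 0.145% to 1.65% of them, and all 5 had UMIs of S100a8, S100a9 and Isg15. The type I list stood at 484, 7942, 11459, 11606 and 17325 CPM in the single cells, so 1 cell was far below the other 4. The gamma list stood at 726, 1146, 1168, 1737 and 7655 CPM, with 1 cell above the rest. Isg15 at 1801 CPM (exact interval 1368 to 2329) lay above CTRL and Gbp2 at 435 (238 to 729.5) also did, with 46.6% of the Isg15 UMIs in 1 cell.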

How the data were processed

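Fixed single-cell RNA was measured with 10x probe sets in 4 libraries, 1 per group. Per the labels the authors used Cell Ranger 7.1.0 with mm10. Per the methods of the paper they kept cells with more than 1000 genes, under 15% mitochondrial and under 40% ribosomal reads, and joined 3 experiments. The deposited annotation holds 17 classes. The deposited table holds UMI counts of 12584 genes in 34447 cells, of which 1201 had at most 1000 of these genes detected. Here, counts of cells named Neutro were summed per library and divided by their total (CPM). Ratios were taken between libraries, with exact Poisson, conditional binomial and Clopper-Pearson 95% intervals for counting error only. A gene needed 50 UMIs over the compared libraries to be called at 2-fold and 20 to enter a list median, and a library at 0 was set to a floor of 3 UMIs. With 1 library per group no test was run. Doublets were kept, and cells were thinned to 1000 UMIs for shares. The members and the 22 gene lists (355 of 374 genes measured) were chosen with earlier results of these data known. Named genes were the 6 markers, the 15 leading genes, the 6 largest rises and falls per comparison with at least 100 CPM in the higher library, and list members with the most UMIs or the largest ratios. A few genes that the rule names are not reported here. Other list members named, and the limit of 1% macrophage markers, were chosen after their values were seen. Alternatives were size factors, equal weight per cell, other limits on UMIs and detected genes, membership by markers, subtraction of the other cells' profile, and removal of the deepest cell or of high doublet scores. Python 3.11.15, pandas 2.3.3, numpy 2.4.6, scipy 1.17.1 and scanpy 1.11.5 were used.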

Additional observations from a re-analysis of the deposited data

How the results depend on the processing

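Genes were counted as higher or lower at 2-fold, and list medians, counts and shares that moved beyond their counting interval or by over 1.5 times are given here. No paired analysis was possible because each group was 1 library without replicate numbers, and for the same reason no replicate could be left out. The neutrophil with the most UMIs in each library could be left out, and then all 6 gene counts and all 24 medians of the 8 main lists stayed within these bounds. Scrublet marked 3 of 34447 cells and 0 neutrophils, so leaving out the marked cells, which keeps every neutrophil, was not run, and its highest scores, like the limit of 1% macrophage markers, were chosen after seeing the data. The subtraction of the other cells' profile took 94.5% of the UMIs in CTRL neutrophils, 49.6% in IRF3/7 and 30.4% in COX2i + 5-AZA to be of that profile, so little of CTRL remained under it. The cause of the changes was not tested. Of 1688 values of single genes, 5 changed sign and 606 moved. Depth limits COX2i, with 5 neutrophils and 32198 UMIs, to levels without ratios, and IRF3/7, with 170271 UMIs in 49 neutrophils, to the genes with enough UMIs. Genes at or under 3 UMIs in a library have wide intervals.

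The share ratios changed with the number of detected genes and with the choice of members. With cells chosen by UMIs of at least 4 of the 6 markers, the log2 ratio of shares was -0.78 for IRF3/7 against CTRL and 2.01 for COX2i + 5-AZA against IRF3/7. In the cells under 1% macrophage markers, the log2 ratio of shares was 0.90 for IRF3/7 against CTRL and 2.42 for COX2i + 5-AZA against CTRL. In cells with more than 1500 detected genes, the log2 ratio of shares was -0.28 for COX2i + 5-AZA against CTRL, 3.23 for COX2i + 5-AZA against COX2i and -0.48 for COX2i + 5-AZA against IRF3/7. In cells with more than 2000 detected genes, the log2 ratio of shares was -0.34 for COX2i + 5-AZA against CTRL, 2.84 for COX2i + 5-AZA against COX2i and -0.24 for COX2i + 5-AZA against IRF3/7. The ratio of COX2i + 5-AZA to CTRL and to IRF3/7 thus changed sign in the cells with more genes, and the cause was not tested. Above 1500 genes, 33 of 44 neutrophils in CTRL, 7 of 22 in IRF3/7 and 10 of 38 in COX2i + 5-AZA held 1% or more macrophage-marker UMIs.

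For IRF3/7 against CTRL, with cells chosen by UMIs of at least 4 of the 6 markers the values were 627 genes lower and list medians of 1.31 (alarmin), 1.09 (granule) and 0.77 (receptor). In the cells under 1% macrophage markers the values were 147 genes higher and 56 genes lower and a list median of -0.036 (alarmin). With each cell weighted equally the value was a list median of 0.38 (alarmin). With the profile of the library's other cells subtracted the values were 669 genes higher and 203 genes lower and list medians of 2.82 (type I), 1.78 (interferon-gamma), 0.093 (alarmin), -0.34 (receptor) and 0.0038 (cytokine), and the sign turned for Mmp9 to 3.12, Il1b to -0.070 and Cxcl2 to -0.011. With a minimum of 20 UMIs the values were 421 genes higher and 974 genes lower. With a minimum of 1 UMI the values were 1919 genes higher and 2206 genes lower. Over genes with at least 50 UMIs the value was a list median of 1.16 (granule).

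For COX2i + 5-AZA against CTRL, with cells chosen by UMIs of at least 4 of the 6 markers the values were 991 genes lower and list medians of 2.39 (alarmin), 1.80 (granule) and 1.52 (receptor). In the cells under 1% macrophage markers the values were 180 genes lower and list medians of 1.08 (alarmin), 0.33 (granule), 0.17 (receptor) and 0.29 (cytokine). With size factors the values were 287 genes lower and a list median of 2.22 (alarmin). With each cell weighted equally the values were 762 genes lower and a list median of 1.71 (alarmin). In neutrophils with more than 1500 detected genes the values were 222 genes higher and 128 genes lower and list medians of 1.00 (alarmin), 0.40 (granule), 0.24 (receptor) and 0.21 (cytokine). With the profile of the library's other cells subtracted the values were 1173 genes higher and list medians of 2.31 (interferon-gamma), 0.87 (alarmin), 0.39 (granule), 0.12 (receptor) and 1.29 (hypoxia), and the sign turned for Mmp12 to -2.45 and Cxcr2 to -0.17. Mmp12 stood at the floor in both libraries there, so its value is no measured ratio. With a minimum of 20 UMIs the value was 1206 genes lower. With a minimum of 1 UMI the values were 667 genes higher and 3659 genes lower. Without the 6% of cells with the highest Scrublet scores the values were list medians of 1.47 (granule) and 1.08 (cytokine).

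For COX2i + 5-AZA against IRF3/7, with each cell weighted equally the values were 329 genes lower and a list median of 1.47 (alarmin). In neutrophils with more than 1500 detected genes the values were 123 genes lower and list medians of -2.29 (type I), 0.081 (alarmin), -0.47 (granule) and -0.12 (receptor). With the profile of the library's other cells subtracted the values were 774 genes higher and list medians of -1.20 (type I), 0.58 (interferon-gamma) and 0.30 (MHC class I). With a minimum of 20 UMIs the values were 611 genes higher and 461 genes lower. With a minimum of 1 UMI the values were 925 genes higher and 3208 genes lower.

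Without thinning, the share of neutrophils with a UMI was 40.3% for Ly6g in COX2i + 5-AZA, 46.2% for Isg15 in CTRL, 87.2% for Isg15 in COX2i + 5-AZA, 20% for Cd274 in CTRL, 79.6% for Cd274 in IRF3/7 and 87.2% for Cd274 in COX2i + 5-AZA.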
